A study of Mus musculus with 18 samples.

Results

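The Slc25 genes encode the mitochondrial carriers, the protein family that moves metabolites across the inner mitochondrial membrane. The members were all rows of the liver table whose symbol starts with Slc25a and a number, which gave 46 members among 19057 rows. The livers came from ICR mice of 10 weeks in 6 groups of 3 mice each. Con mice were controls given saline with a regular diet, and STZ mice had received streptozotocin, a toxin of pancreatic beta cells that produces a model of type 1 diabetes. A10-FMT mice had received streptozotocin and then, by mouth, small intestine microbiota from donors given alginate oligosaccharide (AOS) at 10 mg/kg. Con-FMT mice had received streptozotocin and microbiota from control donors. Both inocula were pools over donor mice. The AOS group was labelled as given AOS at 10 mg/kg and the STZ+AOS group as given both agents, and the schedule of these groups is not given in the sources used here. Values are RPKM, the reads of a gene set against its transcript length and the mapped reads of the library, with 1 library per mouse.

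The inner mitochondrial membrane lets few charged metabolites pass by themselves, and most Slc25 proteins exchange a metabolite of the matrix for one of the cytosol. In liver these carriers link both compartments in the urea cycle, gluconeogenesis, fatty acid oxidation, lipid synthesis, the transfer of reducing equivalents by the malate-aspartate shuttle, and heme and iron-sulfur cluster formation. The genes Ucp1, Ucp2, Ucp3, Mtch1 and Mtch2 belong to the same protein family under other symbols and were kept as a separate list.

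The sums of RPKM per library ran from 621121 to 806937, and the relative depth, estimated from the step of 1 read in low genes, from 0.933 to 1.086. Hepatocyte markers (Alb, Apoa1, Ttr, Tat and Cyp2e1) summed to between 36300 and 56900 RPKM in every library, and skeletal muscle, testis and adipocyte markers to at most 0.07, 0.26 and 0.29 RPKM. Of the 5 hepatocyte markers 4 were called in STZ against Con, Apoa1 (log2 change -0.70) and Ttr (-0.92) lower and Tat (1.27) and Cyp2e1 (0.82) higher. Genes in the marker lists of other cells moved with streptozotocin as well. Kupffer cell markers summed to 51.3 to 80.0 RPKM in Con and 80.9 to 182 RPKM in STZ mice, where Marco rose (log2 change 2.79, limma adjusted p = 0.00936). Clec4f, Cd5l, Adgre1 and Vsig4 had higher means in STZ mice, but the mice of both groups overlapped in each of them. Stellate cell markers summed to 65.8 to 77.1 RPKM in Con and 104 to 124 RPKM in STZ mice, where Dcn rose (0.72, adjusted p = 0.0178). Dcn made up most of these sums. The group means of Col1a1 went from 0.92 to 0.88 RPKM, of Reln from 2.86 to 3.21 RPKM and of Lrat from 1.25 to 1.87 RPKM. Endothelial markers summed to 32.6 to 36.6 and 33.9 to 43.7 RPKM, with Pecam1 higher (0.54, adjusted p = 0.0271). Cholangiocyte markers summed to 3.88 to 4.57 and 3.06 to 4.61 RPKM, with Sox9 lower (-0.73, adjusted p = 0.00826). The other cholangiocyte markers had higher means in STZ mice, Krt19 at 1.31 beside 1.26, Krt7 at 0.877 beside 0.707 and Epcam at 0.6 beside 0.18 RPKM, so the list has no common direction. The pancreas list summed to 31.1 to 40.6 RPKM in Con and 2.96 to 8.77 RPKM in STZ mice. Almost all of this was Cela1, and Cpa1, Prss2 and Pnlip were at most 0.27 RPKM in these mice, so the fall is that of Cela1 and not of the list. T and B cell markers summed to 1.28 to 1.5 and 0.46 to 0.76 RPKM. Erythroid markers summed to 1580 to 3120 RPKM in Con and 614 to 2610 RPKM in STZ mice. The part of these lists in the Slc25 values was not tested. In whole liver, fewer cells of a type and less RNA per cell cannot be told apart.

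The Slc25 transcripts of these livers covered a wide range of levels. Over the 18 mice, 8 members averaged 100 RPKM or more, 16 lay between 10 and 100 RPKM, 12 between 1 and 10 RPKM, and 10 were under 1 RPKM. The highest levels per length belonged to Slc25a5, the ADP/ATP carrier ANT2, with a mean of 378.6 RPKM, to Slc25a39, a glutathione carrier (269.5 RPKM), and to Slc25a3, the phosphate carrier (264.7 RPKM). Those 3 genes held between 39.6% and 49.8% of the Slc25 sum in each library. They were followed by Slc25a47, a carrier found mainly in liver (205.1 RPKM), and by the ornithine carrier Slc25a15 (117.8 RPKM), the ATP-Mg/phosphate carrier Slc25a23 (116.9 RPKM), the citrate carrier Slc25a1 (116.8 RPKM) and the glutamate carrier Slc25a22 (101.6 RPKM). The levels of Slc25a15, Slc25a23 and Slc25a1 did not differ beyond their spread over the mice. At the lower end, the genes Slc25a2, Slc25a18, Slc25a24, Slc25a27, Slc25a31, Slc25a36, Slc25a41, Slc25a43 and Slc25a53 reached at most 1.1 RPKM in any mouse and were not tested. Slc25a35 passed the filter of at least 1 RPKM in 3 libraries only over all 18 libraries, through 2 Con mice and 1 AOS mouse. This left 36 members tested in the 4 groups of the transplant experiment and 37 in all 6 groups, of which 34 were at 1 RPKM or more in every library.

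STZ was compared with Con to ask which carriers differ in the diabetic liver. Of 36 tested members, 20 rose and 1 fell at an adjusted p under 0.05, which is 58.3% of them, whereas 38.5% of the 10602 genes tested were called (33.0% higher and 5.52% lower). Those that rose did so by 1.25-fold to 3.32-fold on the log2(RPKM + 1) scale, and included 4 of 6 tested carriers of amino acids, 3 of 4 carriers of di- and tricarboxylates and both acylcarnitine carriers. The median log2 change was 0.54 over the members and 0.21 over all genes. In 21 members every STZ mouse was above every Con mouse, and in 1 every STZ mouse was below, whereas 47.7% of all genes were separated in this way. The summed Slc25 level was 1340, 1614 and 1514 RPKM in the Con mice and 2571, 2669 and 2164 RPKM in the STZ mice. As a share of all RPKM, that was 0.166% to 0.215% in Con and 0.316% to 0.423% in STZ mice, without overlap. Nothing states that mice of a group came from separate litters or cages, so the p-values measure the spread between these mice.

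**Figure D1:**
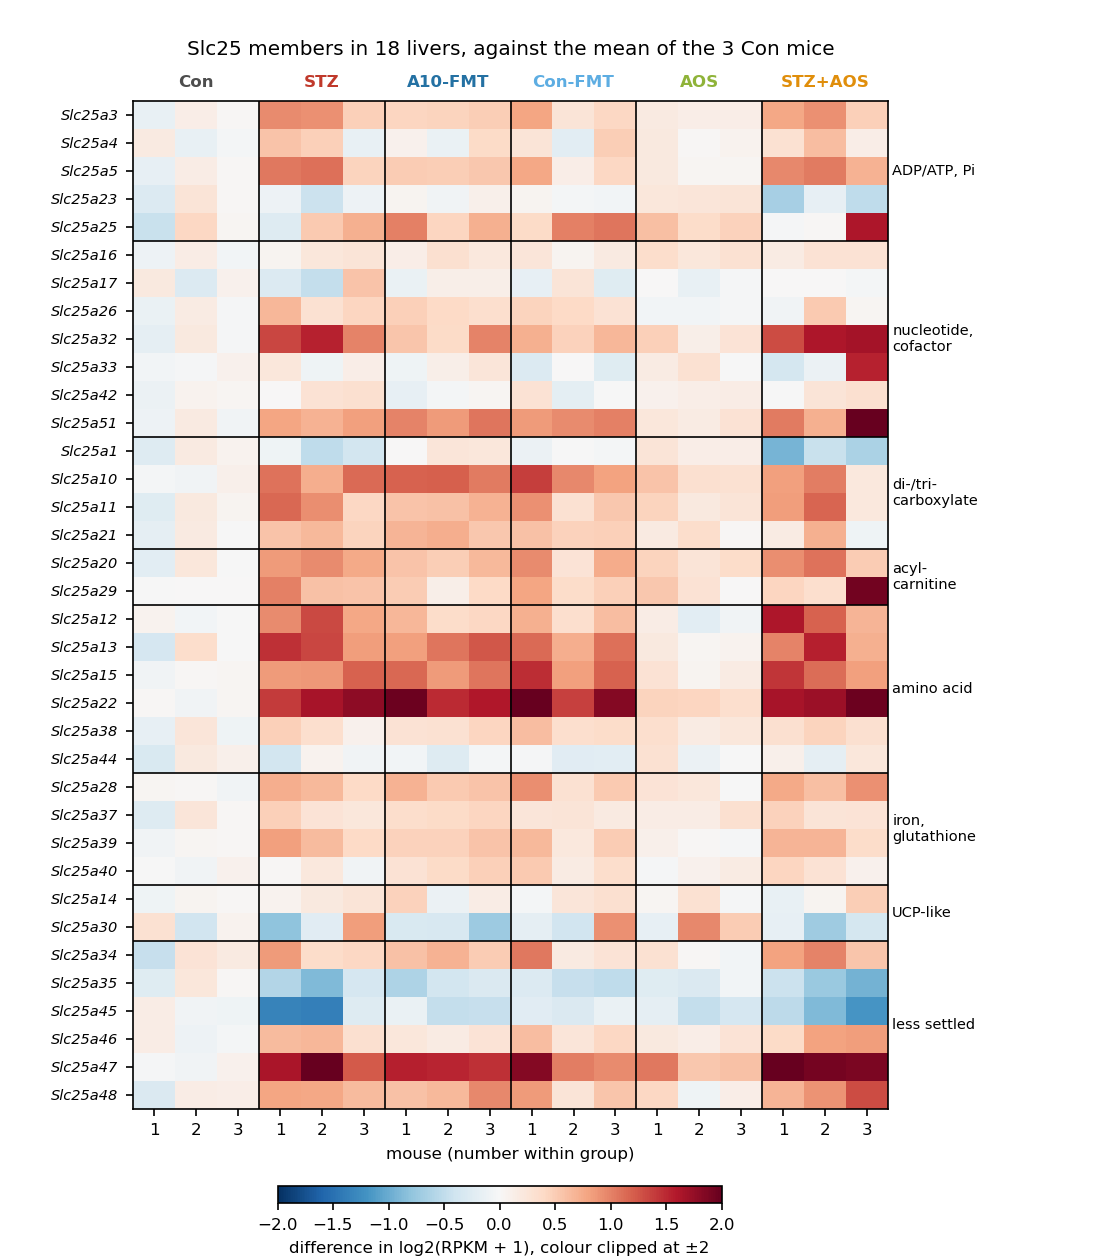
Rows are 36 of the 37 tested Slc25 members in order of role, columns the 18 mice by group, and the colour is the difference in log2(RPKM + 1) from the mean of the 3 Con mice. The rows of Slc25a22 and Slc25a47 are red, in differing depth, in every mouse given streptozotocin. Mouse 3 of STZ+AOS stands apart from its group in Slc25a51, Slc25a33, Slc25a25 and Slc25a29.

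The direction depended in part on the scaling. Of all calls 85.7% were higher in STZ. When the libraries were rescaled by median ratios, which brought the median change of all genes to -0.01, 51.4% of all calls were higher. Under that scaling 21 members were again called, 17 higher and 4 lower, with a member median of 0.32, where 27.3% of all genes were called. The share of member calls that were higher went from 95.2% to 81.0%. Slc25a26, Slc25a37 and Slc25a46 were no longer called, and Slc25a1, Slc25a23 and Slc25a44 were called lower.

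**Figure D2:**
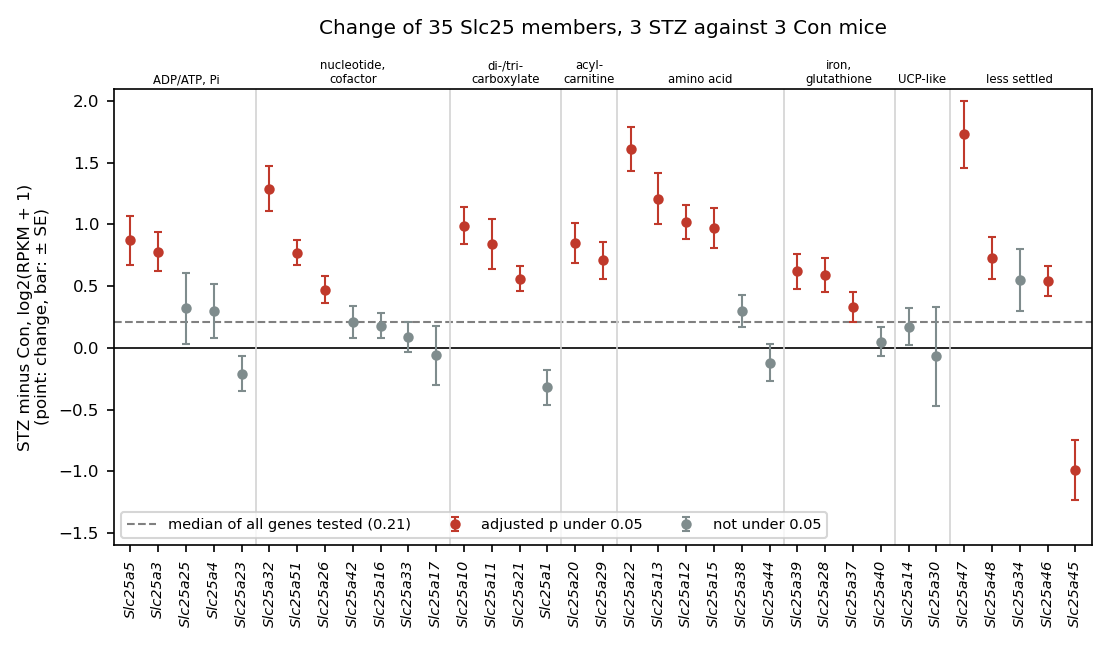
Each point is the log2 change of 1 Slc25 member, for 35 of the 36 tested, between 3 STZ and 3 Con mice on the log2(RPKM + 1) scale, with bars of 1 SE, and members are grouped by what they carry. The 21 called members are red, 20 of them above the dashed line at the median of all genes (0.21), and Slc25a45 lies alone at -0.99.

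The amino acid carriers held the largest median change of any role (0.99 over 6 tested members), and 4 of the 6 rose. Slc25a22, which brings glutamate into the matrix, was at 39.2, 37.0 and 40.0 RPKM in the Con mice and at 103, 124 and 137 RPKM in the STZ mice. It rose 3.06-fold (log2 change 1.61, SE 0.18, adjusted p = 0.000328), with no overlap between the groups. Slc25a13, also called citrin, and Slc25a12, also called aralar, export aspartate in exchange for glutamate and belong to the malate-aspartate shuttle. The citrin transcript was at 35.0, 57.3 and 44.5 RPKM in Con and at 125, 114 and 81.0 RPKM in STZ mice (1.21, SE 0.21, adjusted p = 0.00184). The aralar transcript was far less abundant, at 4.43, 3.96 and 4.12 RPKM in Con and 9.0, 11.9 and 7.87 RPKM in STZ mice (1.02, SE 0.14, adjusted p = 0.000795). Both genes were thus higher in each STZ mouse than in any Con mouse. Slc25a15, which exchanges ornithine for citrulline in the urea cycle, was at 63.4, 67.2 and 68.2 RPKM in Con and 121, 122 and 151 RPKM in STZ mice (0.97, SE 0.16, adjusted p = 0.00155). The glycine carrier Slc25a38 (0.30, adjusted p = 0.098) and the branched-chain amino acid carrier Slc25a44 (-0.12, adjusted p = 0.523) did not pass the test.

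The enzymes that work with these carriers were given by lists of their own. In the malate-aspartate shuttle all 4 enzymes rose. Cytosolic aspartate aminotransferase Got1 went from 33.6, 51.8 and 44.8 RPKM in Con to 321, 318 and 245 RPKM in STZ mice (log2 change 2.75, adjusted p = 0.00019), which is a larger change than that of any Slc25 member. The others rose by 1.08 (Mdh2), 0.50 (Got2) and 0.49 (Mdh1). Of the 5 urea cycle enzymes 4 rose, with Asl at 1.84, Cps1 at 1.37, Ass1 at 1.09 and Arg1 at 0.97. Otc, the matrix enzyme that uses the ornithine brought in by Slc25a15, had a change of 0.33 (adjusted p = 0.0822).

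**Figure D3:**
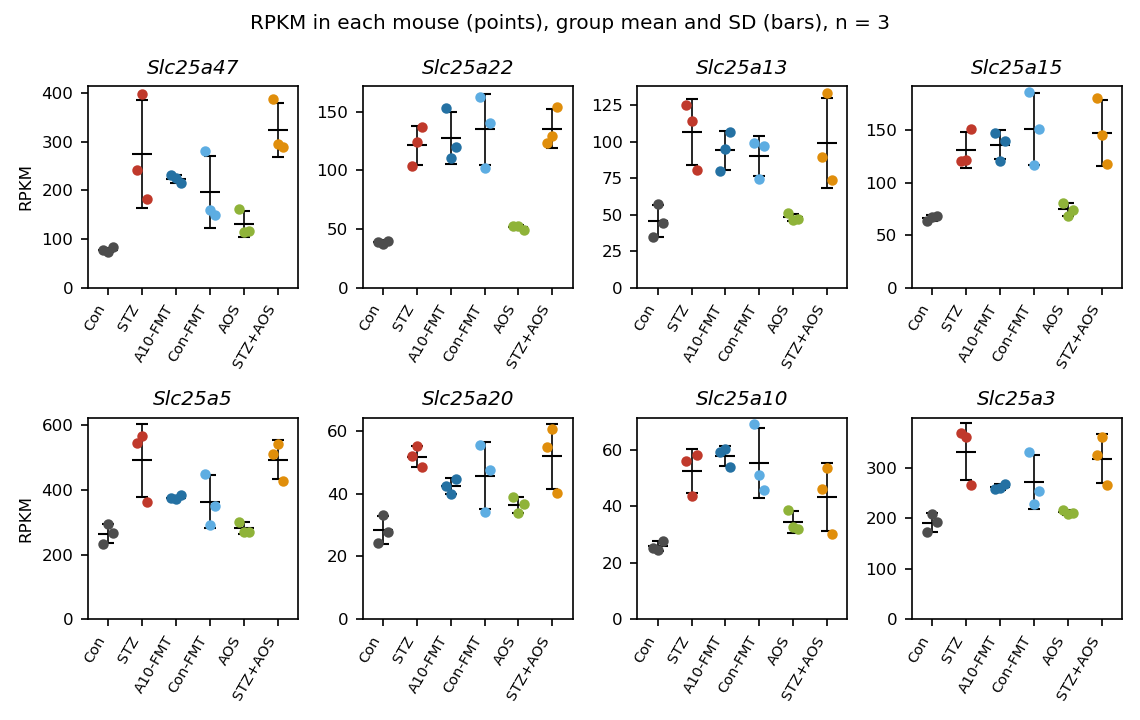
Each panel shows the RPKM of 1 Slc25 member in every mouse of the 6 groups as points, with the mean and SD of 3 mice as a bar. In all 8 panels the Con mice lie below the STZ mice, and Slc25a22 stays above 100 RPKM in every mouse given streptozotocin and under 53 RPKM in every other mouse.

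Among the carriers of di- and tricarboxylates, 3 of 4 rose and the citrate carrier stood apart from them. The dicarboxylate carrier Slc25a10, which moves malate and succinate, was at 25.2, 24.6 and 27.9 RPKM in Con and at 56.1, 43.6 and 58.2 RPKM in STZ mice (0.99, SE 0.15, adjusted p = 0.00115). The 2-oxoglutarate carrier Slc25a11, the other carrier of the malate-aspartate shuttle, was at 28.6, 39.2 and 35.4 RPKM in Con and 76.9, 66.2 and 46.0 RPKM in STZ mice (0.84, SE 0.20, adjusted p = 0.00774). The oxodicarboxylate carrier Slc25a21 rose by 0.56 from a lower level. Slc25a1 exports the citrate that feeds fatty acid synthesis, and its levels of 104, 140 and 131 RPKM in Con overlapped the 117, 86.5 and 95.9 RPKM in STZ mice. Its change was -0.32 (SE 0.14, adjusted p = 0.0899), and it was called lower without Con mouse 1 (-0.45, adjusted p = 0.0407), without STZ mouse 1 (-0.44, adjusted p = 0.0369) and after median-ratio scaling (-0.59, adjusted p = 0.00977). In the list of citrate use and pyruvate entry, Me1, which makes NADPH from malate, fell by 0.63, the citrate-cleaving Acly had a change of -0.56 (adjusted p = 0.0574) and Cs one of -0.21 without passing the test, whereas the pyruvate carrier genes Mpc1 (1.16) and Mpc2 (0.99) and pyruvate carboxylase Pcx (0.93) rose.

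Both acylcarnitine carriers rose. Slc25a20, which brings acylcarnitines to the matrix for oxidation, was at 24.1, 33.0 and 27.9 RPKM in Con and at 51.8, 55.1 and 48.4 RPKM in STZ mice (0.85, SE 0.16, adjusted p = 0.00288). Slc25a29, described at first as an acylcarnitine carrier and later as a carrier of basic amino acids, was at 1.15, 1.18 and 1.18 RPKM in Con and at 3.34, 2.24 and 2.21 RPKM in STZ mice (0.71, SE 0.15, adjusted p = 0.00474). Neither gene overlapped between the groups, but Slc25a29 was not called with all 6 groups in 1 fit (adjusted p = 0.0765). In the carnitine shuttle, Cpt1a (1.51), Crat (1.34), the plasma membrane carnitine transporter Slc22a5 (1.19) and Cpt2 (0.58) rose, and Cpt1b, the form of muscle, was near 1 RPKM and had a change of 0.16.

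Of the 5 tested carriers of adenine nucleotides and phosphate, the 2 most abundant rose. Slc25a5 was at 234, 294 and 267 RPKM in Con and at 546, 568 and 361 RPKM in STZ mice (0.87, SE 0.20, adjusted p = 0.00647). Slc25a3, which supplies phosphate for ATP synthesis, was at 172, 209 and 194 RPKM in Con and 368, 362 and 266 RPKM in STZ mice (0.78, SE 0.16, adjusted p = 0.00454). The STZ mice were above the Con mice in both genes. Slc25a4, or ANT1, the form of heart and muscle, was at 1.94 to 2.70 RPKM in Con and 1.94 to 3.82 RPKM in STZ mice and did not pass the test. The calcium-regulated ATP-Mg/phosphate carriers Slc25a23 (-0.21, adjusted p = 0.241) and Slc25a25 (0.32, adjusted p = 0.396) did not pass it either. Slc25a5 and Slc25a4 are closely related in sequence and have processed pseudogenes, and how the authors' mapping divided shared reads was not tested. At the outer membrane, the pores Vdac1 (0.84) and Vdac2 (0.81) rose and Vdac3 had a change of 0.33 (adjusted p = 0.0568). Of the family genes under other symbols, Mtch2 (0.48) and Mtch1 (0.42) rose, Ucp2 had a change of 0.83 (adjusted p = 0.0513), and Ucp1 and Ucp3 did not exceed 0.04 RPKM in any mouse.

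The carriers of other nucleotides and cofactors were mixed, with 3 of 8 tested members called. Slc25a32, which carries folate and FAD, was at 2.33, 3.33 and 2.70 RPKM in Con and at 8.54, 9.98 and 6.51 RPKM in STZ mice, a rise of 1.29 (SE 0.18, adjusted p = 0.000673). Slc25a51, the carrier of NAD+, was at 8.91, 11.0 and 9.17 RPKM in Con and 17.4, 16.3 and 17.83 RPKM in STZ mice (0.77, SE 0.10, adjusted p = 0.000512). The STZ mice lay close to each other and clear of the Con mice in the second of these genes, which was not called with all 6 groups in 1 fit (adjusted p = 0.0895). Slc25a26, which carries S-adenosylmethionine, rose by 0.47 (adjusted p = 0.00827). The other 5, which include the coenzyme A carrier Slc25a42 and the peroxisomal carrier Slc25a17, had changes between -0.06 and 0.21.

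In the group of iron and glutathione carriers 3 of 4 members rose by small amounts. Slc25a39, which imports glutathione, was at 195, 212 and 210 RPKM in Con and at 365, 319 and 272 RPKM in STZ mice (0.62, SE 0.14, adjusted p = 0.00619). Its relative Slc25a40 was far lower, between 1.11 and 1.57 RPKM in both groups, and had a change of 0.05. The iron importer of most tissues, mitoferrin-2 (Slc25a28), rose by 0.59 (adjusted p = 0.00894). Mitoferrin-1 (Slc25a37), the form that is rich in red cell precursors, was at 8.28, 12.1 and 10.3 RPKM in Con and 14.5, 12.4 and 11.99 RPKM in STZ mice, and these ranges overlapped. Its change of 0.33 (adjusted p = 0.048) was the only one of the 21 calls that was lost in some fits without 1 mouse, and it was lost in 4 of 6. The erythroid gene Alas2 fell in the same comparison, from 117, 114 and 121 RPKM to 3.59, 9.75 and 43.4 RPKM (-3.19, adjusted p = 0.00249). In the list of mitochondrial iron and heme genes, Alas1, the rate-limiting enzyme of heme synthesis outside red cells, rose by 1.89 and Fech by 0.76, Abcb10 fell by 0.28, and Iscu (0.32, adjusted p = 0.0518) did not pass the test.

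The carriers that resemble uncoupling proteins did not pass the test. Slc25a14 was at 0.94 to 1.15 RPKM in Con and 1.16 to 1.46 RPKM in STZ mice. Slc25a30 varied widely in both groups, from 3.63 to 6.5 and from 2.48 to 9.75 RPKM.

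The carriers whose substrate is less settled included the strongest rise and the only fall. Slc25a47 was at 77.0, 74.2 and 82.8 RPKM in Con and at 243, 399 and 183 RPKM in STZ mice. It rose 3.32-fold (1.73, SE 0.27, adjusted p = 0.00126), and its STZ mice differed more among themselves than the Con mice did. In the mouse annotation Slc25a47 (chr12:108836046-108856815, plus strand, GRCm38) begins 163 bases from the end of Slc25a29 (chr12:108825873-108835883, minus strand), so that the neighbours point away from each other, and both rose. That gap holds for the outermost annotated start alone. The RefSeq start of Slc25a47 used below comes after chr12:108851128, much farther from Slc25a29. A promoter shared by both genes was not tested. Slc25a45 went the other way, from 19.4, 16.4 and 16.3 RPKM in Con to 6.25, 6.08 and 14.3 RPKM in STZ mice (-0.99, SE 0.24, adjusted p = 0.00904). All STZ mice were below the Con mice, but mouse 3 lay nearer to them than to its own group, and without it the change was -1.35 (adjusted p = 3.11e-05). Slc25a48, linked to choline transport, rose by 0.73 and Slc25a46, a protein of the outer membrane, by 0.54. Slc25a34 had a change of 0.55 (adjusted p = 0.098).

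The sequences before 3 of these genes are shown because their transcripts behaved differently: Slc25a47 changed most, Slc25a13 is a riser of the malate-aspartate shuttle, and Slc25a1 did not rise with the other dicarboxylate and tricarboxylate carriers. Each line holds the 250 bases before the start of a RefSeq transcript of GRCm38.p6, 5′ to 3′ on the strand of the gene. Capitals mark matches on either strand to the E-box CACGTG, to CCAAT and to the GC-box GGGCGG. The windows are chr12:108850879-108851128 (plus strand) for Slc25a47, whose RefSeq start lies inside the longer annotated gene, chr6:6217174-6217423 (minus strand) for Slc25a13 and chr16:17928220-17928469 (minus strand) for Slc25a1.
Slc25a47: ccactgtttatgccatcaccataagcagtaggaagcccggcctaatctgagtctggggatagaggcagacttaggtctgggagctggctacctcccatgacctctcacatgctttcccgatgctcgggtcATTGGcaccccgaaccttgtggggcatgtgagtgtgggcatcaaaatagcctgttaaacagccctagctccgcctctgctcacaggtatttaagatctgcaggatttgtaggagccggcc
Slc25a13: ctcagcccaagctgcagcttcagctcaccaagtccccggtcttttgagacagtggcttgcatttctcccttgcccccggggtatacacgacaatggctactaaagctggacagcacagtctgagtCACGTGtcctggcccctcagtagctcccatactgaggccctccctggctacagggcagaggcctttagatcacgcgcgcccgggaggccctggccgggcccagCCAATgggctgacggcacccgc
Slc25a1: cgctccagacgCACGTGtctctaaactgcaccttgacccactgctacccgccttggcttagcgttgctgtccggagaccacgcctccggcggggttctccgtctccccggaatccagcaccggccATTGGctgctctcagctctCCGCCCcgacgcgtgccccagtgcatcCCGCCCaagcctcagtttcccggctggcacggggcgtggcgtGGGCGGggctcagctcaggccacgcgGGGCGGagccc
The window of Slc25a47 held 1 CCAAT match and neither of the others, that of Slc25a13 1 E-box and 1 CCAAT match, and that of Slc25a1 1 E-box, 1 CCAAT and 4 GC-box matches. The RefSeq table had windows for 35 of the 46 members. A CCAAT match stood in the windows of 18 of them and of 7 of the 15 called higher that had a window, and in 33.8% of all 32851 windows. A GC-box stood before 25 of the 35 members and 10 of the 15, and in 32.7% of all windows, while an E-box stood before 7 and 2, and in 6.02% of all windows. These member counts are by gene, whereas the shares are by window. Counted by window, CCAAT stood in 21 of the 45 member windows, the GC-box in 32 and the E-box in 8. Of the 19 windows of members called higher, 7, 13 and 2 held them. A direct repeat of the nuclear receptor type, 2 copies of AGGNCA with 1 base between them, was found before none of the 35 and in 0.338% of all windows. The cAMP response element TGACGTCA was found before Slc25a25 and Slc25a36 and in 1.55% of all windows, and the NRF1 motif, GCGCA and GCGC with 1 base between them, before Slc25a3 and Slc25a31 and in 3.74%. Each motif was searched on both strands and on its own, so that matches can overlap, and some genes had several windows. A match is a run of letters and was not tested as a site.

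The transplant groups were compared with STZ to ask whether microbiota changed the carriers in diabetic mice. No carrier was called in A10-FMT against STZ, where 0.226% of all genes were called by limma, or in Con-FMT against STZ, where 0.00943% were. At an unadjusted p under 0.05 there were 7 and 5 members, against 2212 and 2131 of all genes. The changes ran from -0.65 to 0.63 in the A10-FMT and from -0.68 to 0.77 in the Con-FMT comparison, with SE from 0.09 to 0.40, and both comparisons share the STZ mice. In 9 members the A10-FMT and STZ mice did not overlap, 4 higher and 5 lower, where 21.5% of all genes were separated, and in 5 members the Con-FMT and STZ mice did not, where 17.7% were. Carriers with the smallest p-values were Slc25a12, Slc25a32, Slc25a45 and Slc25a1. Slc25a32 was at 8.54, 9.98 and 6.51 RPKM in STZ, 4.52, 3.89 and 6.47 RPKM in A10-FMT and 5.15, 4.2 and 4.96 RPKM in Con-FMT mice. Its change was -0.65 (adjusted p = 0.0917) with A10-FMT and -0.68 (adjusted p = 0.0922) with Con-FMT, and the STZ mice were above the others in both cases. Slc25a12 was at 7.19, 5.63 and 5.86 RPKM in A10-FMT and 7.45, 5.54 and 6.92 RPKM in Con-FMT mice, all below the STZ mice (-0.54, adjusted p = 0.0914, and -0.46, adjusted p = 0.127). Slc25a45 was at 15.6, 12.2 and 12.3 RPKM in A10-FMT and at 14.6, 13.9 and 15.7 RPKM in Con-FMT mice (0.63, adjusted p = 0.18, and 0.77, adjusted p = 0.126). Slc25a1 was at 125, 146 and 145 RPKM in A10-FMT mice, above every STZ mouse (0.48, adjusted p = 0.112).

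The result of these comparisons turned on STZ mouse 3, which correlated least with the other STZ mice (Pearson's r of 0.977 and 0.978 over genes, against 0.991 between the other mice). Without it 4 members were called in each comparison, 1 higher and 3 lower, where 12.7% and 15.5% of all genes were called. Slc25a12 (-0.66, adjusted p = 0.0177), Slc25a32 (-0.80, adjusted p = 0.0169) and Slc25a46 (-0.43, adjusted p = 0.0384) were then lower and Slc25a45 (0.99, adjusted p = 0.0012) higher in A10-FMT than in STZ mice. In Con-FMT mice, Slc25a12 (-0.58, adjusted p = 0.0242), Slc25a32 (-0.83, adjusted p = 0.0132) and Slc25a5 (-0.64, adjusted p = 0.0311) were lower and Slc25a45 (1.13, adjusted p = 0.00048) higher. The other leave-one-out fits called none.

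Between the transplant groups, A10-FMT against Con-FMT, no member was called, 0.0% of all genes were called, and no member had an unadjusted p under 0.05, against 303 genes. The lowest p belonged to the pyrimidine nucleotide carrier Slc25a33, at 11.3, 13.2 and 14.5 RPKM in A10-FMT and 9.91, 12.2 and 10.1 RPKM in Con-FMT mice (0.25, SE 0.12, unadjusted p = 0.0529, limma adjusted p = 0.999). The member changes lay between -0.57 and 0.25 with SE from 0.09 to 0.40. In 2 members, Slc25a1 and Slc25a37, the A10-FMT mice lay above the Con-FMT mice, where 8.92% of all genes were separated.

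The transplanted mice were also compared with Con, to ask how far their carriers stood from those of mice without diabetes. Each transplant group called 17 members against Con, all higher. With the compared groups alone the counts were 22 for A10-FMT, 21 higher and 1 lower, and 14 for Con-FMT, and with all 6 groups in 1 fit both were 13. Among all genes 18.4% were called with A10-FMT (15.9% higher, 2.47% lower) and 19.4% with Con-FMT (17.5% higher, 1.89% lower). Both comparisons and that of STZ share the Con mice. The A10-FMT mice lay above every Con mouse in 25 members and below in 1, where 48.9% of all genes were separated, and the Con-FMT mice in 21 and 1, where 45.9% were. Slc25a22 was at 153, 111 and 120 RPKM in A10-FMT and at 162, 102 and 141 RPKM in Con-FMT mice, with changes of 1.68 and 1.75 beside 1.61 in STZ. For Slc25a47 the changes were 1.51 and 1.27 beside 1.73, for Slc25a10 1.13 and 1.05 beside 0.99, for Slc25a13 1.05 and 0.99 beside 1.21, and for Slc25a15 1.02 and 1.15 beside 0.97. Slc25a12 and Slc25a32 had smaller changes with the transplants, 0.48 and 0.56 beside 1.02 and 0.64 and 0.61 beside 1.29. Slc25a3, Slc25a5 and Slc25a45 were called in STZ and in neither transplant group, which rested on the mice in the fit. With the compared groups alone all 3 were called in A10-FMT against Con, Slc25a3 at 0.45 (adjusted p = 0.0117), Slc25a5 at 0.51 (adjusted p = 0.0103) and Slc25a45 at -0.36 (adjusted p = 0.047). With all 6 groups in 1 fit Slc25a3 was called in Con-FMT against Con (0.49, adjusted p = 0.0434). The tests of their difference from STZ are the comparisons with STZ above. After median-ratio scaling the calls against Con came to 9 for A10-FMT and 7 for Con-FMT, all of them higher, where 11.0% and 8.24% of all genes were called. Without 1 mouse the counts ran from 7 to 14 and from 6 to 19.

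**Figure D4:**
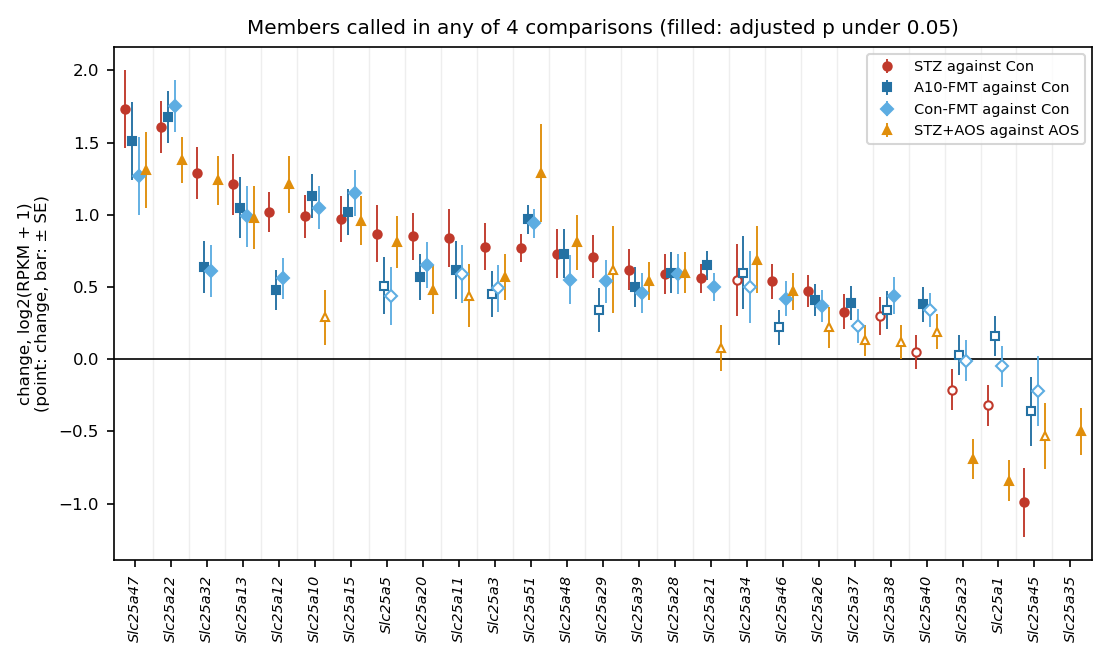
The 27 Slc25 members called in any of 4 comparisons are shown with their log2 change and SE in each comparison that tested them, filled where the adjusted p was under 0.05. They include Slc25a35, which was tested in STZ+AOS against AOS alone and whose lower call there follows from the filter. Slc25a22 and Slc25a47 are filled and above 1.2 in all 4 comparisons, and Slc25a45 is filled in STZ against Con alone.

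AOS given to mice without streptozotocin was compared with Con, and no member was called, where 0.00924% of all genes were. The median change was 0.16 over the 37 tested members and 0.06 over all genes, and 5 members had an unadjusted p under 0.05, against 781 genes. In 11 members the AOS and Con mice did not overlap, 10 of them higher, where 24.4% of all genes were separated. Slc25a47 was at 162, 114 and 118 RPKM in AOS mice, above every Con mouse (0.72, SE 0.26, limma adjusted p = 0.62). Slc25a22 was at 52.8, 52.2 and 49.2 RPKM, also above every Con mouse (0.40, SE 0.16, adjusted p = 0.647). Slc25a16, a carrier tied to coenzyme A, was at 25.1, 23.0 and 24.2 RPKM beside 18.2, 21.7 and 18.7 RPKM in Con mice (0.29, SE 0.09, adjusted p = 0.54). All 3 genes kept apart from Con in every AOS mouse without passing the test.

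AOS given with streptozotocin was compared with streptozotocin alone. No member was called in STZ+AOS against STZ, where 0.0% of all genes were called by limma, and 3 members had an unadjusted p under 0.05, against 657 genes. No member was separated between these groups, where 5.13% of all genes were. The lowest p-values were those of Slc25a1 (-0.35), Slc25a26 (-0.30) and Slc25a51 (0.75), all with an adjusted p of 0.806. The difference between the effect of AOS in mice with and without streptozotocin was also called in no member and in 0.0% of all genes, with 3 members and 584 genes at an unadjusted p under 0.05. It was largest by p in Slc25a10 (-0.70), Slc25a1 (-0.52) and Slc25a23 (-0.48), all with an adjusted p of 0.856.

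STZ+AOS against AOS compares mice with and without streptozotocin that are other animals than the STZ and Con mice. It called 18 of 37 members, 15 higher and 3 lower, where 37.9% of all genes were called (31.8% higher, 6.11% lower). In 20 members the groups did not overlap, 15 higher and 5 lower, where 49.1% of all genes were separated. The median change was 0.29 over the members and 0.21 over all genes. Genes in the marker lists moved in this comparison too. Stellate cell markers summed to 76.5 to 85.2 RPKM in AOS and 127 to 149 RPKM in STZ+AOS mice, with Dcn higher (0.77, adjusted p = 0.00471). Dcn made up most of these sums, and the mean of Lrat went from 1.39 to 2.21, of Col1a1 from 0.62 to 0.637 and of Reln from 3.29 to 3.01 RPKM. Kupffer cell markers summed to 64.0 to 90.8 and 92.8 to 125 RPKM, with Marco higher (2.40, adjusted p = 0.00858). Vsig4 was higher in every STZ+AOS mouse, while Clec4f, Cd5l and Adgre1 overlapped. The endothelial gene Lyve1 rose (1.40, adjusted p = 0.0411), at 1.52, 1.81 and 12.23 RPKM in STZ+AOS mice, with mouse 3 far above the others. The means of Pecam1 and Clec4g were higher in STZ+AOS than in AOS mice, and that of Stab2 was lower (4.41 beside 4.74 RPKM). Of the hepatocyte markers Tat rose (1.79), at 1276, 994 and 4124 RPKM in STZ+AOS mice, again with mouse 3 far above the others. Apoa1 (-0.96) and Ttr (-1.18) were lower. Erythroid markers summed to 3100 to 4020 and 414 to 2280 RPKM, with Alas2 lower (-3.53, adjusted p = 0.000573). The pancreas list summed to 30.6 to 48.9 and 3.19 to 22.7 RPKM, with Cela1 lower (-3.0, adjusted p = 2.18e-05). Cpa1, Prss2 and Pnlip were near 0 RPKM except in mouse 3 of STZ+AOS, at 3.31, 7.74 and 7.23 RPKM. The part of the marker lists in the Slc25 values was not tested. Slc25a22 was at 123, 129 and 154 RPKM in STZ+AOS mice, and was the member with the largest change (1.38, SE 0.16, adjusted p = 6.92e-05). Slc25a47 was at 389, 296 and 289 RPKM (1.31, SE 0.26, adjusted p = 0.00175), Slc25a32 rose by 1.24 and Slc25a12 by 1.21. The amino acid carriers again held 4 calls among 6 tested members. The citrate carrier Slc25a1 was at 148, 136 and 136 RPKM in AOS and at 64.7, 90.6 and 79.4 RPKM in STZ+AOS mice, and fell by 0.84 (SE 0.14, adjusted p = 0.000702) with no overlap. Slc25a23 was at 141, 143 and 144 RPKM in AOS and at 75.7, 107 and 84.5 RPKM in STZ+AOS mice (-0.69, SE 0.14, adjusted p = 0.00224). Slc25a35 is the other of the 3 lower calls, with a change of -0.50 (adjusted p = 0.0255). It had entered the test through 2 Con mice and 1 AOS mouse alone, and no STZ+AOS mouse reached 1 RPKM, so its direction follows from the filter and nothing is read from it. Slc25a45 was lower in each STZ+AOS mouse than in any AOS mouse and did not pass the test (-0.53, adjusted p = 0.0834). The dicarboxylate carrier Slc25a10 and its relative Slc25a11 had changes of 0.29 and 0.44 that did not pass it either. The effect of streptozotocin with AOS minus that without was -0.70 for Slc25a10, -0.39 for Slc25a11 and -0.52 for Slc25a1 (adjusted p = 0.856, 0.915 and 0.856), so that the effects are not shown to differ. After median-ratio scaling, which set the median of all genes to 0.01, the comparison called 15 members, 10 higher and 5 lower, where 24.5% of all genes were called, and the share of member calls that were higher went from 83.3% to 66.7%. The lower calls under both scalings, and the 5 members separated lower, include Slc25a35. These counts and shares thus hold a member whose direction follows from the filter.

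Mouse 3 of STZ+AOS stood apart from the other mice of its group in several carriers. Slc25a51 was at 20.9 and 16.5 RPKM in the first and the second mouse and at 73.5 RPKM in the third, and Slc25a33 at 9.23, 11.1 and 37.1 RPKM. Slc25a25, an ATP-Mg/phosphate carrier, was at 47.2, 48.6 and 149 RPKM, and Slc25a29 at 1.92, 1.75 and 7.26 RPKM. In each of these genes the third value was the highest of all 18 mice. The pancreatic gene Prss2 was at 7.74 RPKM in this mouse and at most 0.40 RPKM in the others, and its part in these values was not tested. Without this mouse, 20 members were called in STZ+AOS against AOS, 17 of them shared with the fit of all mice. The change of Slc25a51 went from 1.29 (SE 0.34, adjusted p = 0.00936) to 0.65 (SE 0.11, adjusted p = 0.00135). That of Slc25a33 turned from 0.20 (adjusted p = 0.647) to -0.39 (adjusted p = 0.0381), Slc25a35 was no longer called, and Slc25a10 (0.52) and Slc25a11 (0.71) were. The change of Slc25a29 went from 0.62 (adjusted p = 0.118) to 0.10 (adjusted p = 0.669).

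**Figure D5:**
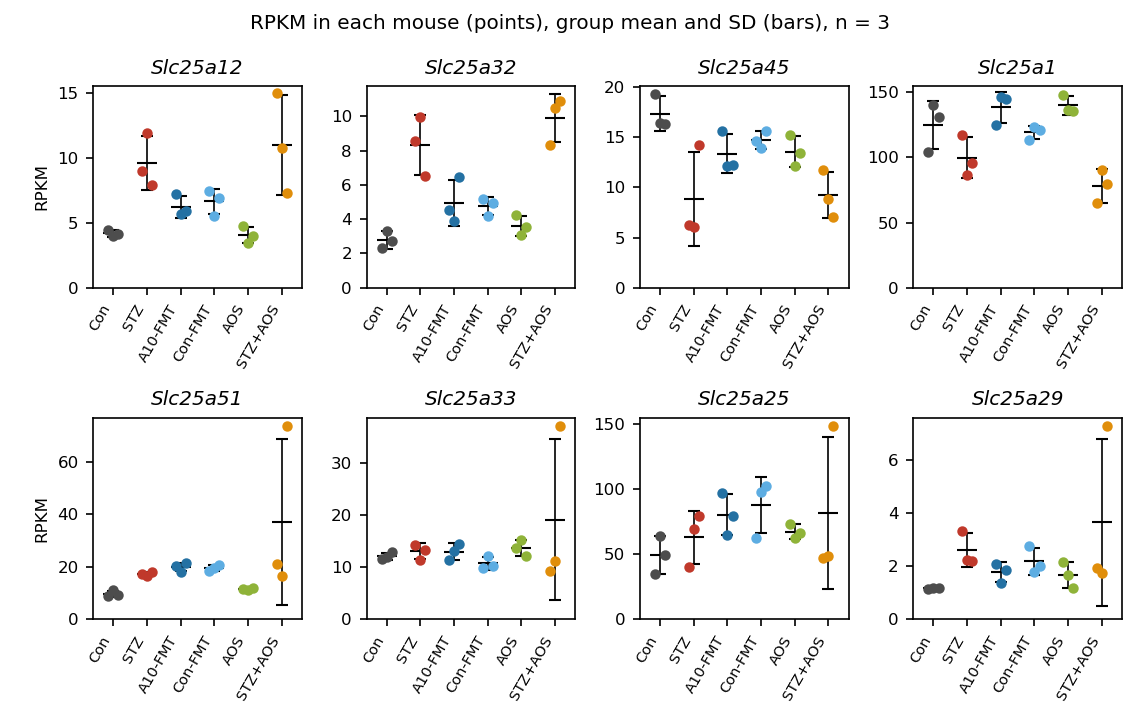
Each panel shows the RPKM of 1 Slc25 member in every mouse of the 6 groups as points, with the mean and SD of 3 mice as a bar. The upper panels show Slc25a12, Slc25a32 and Slc25a45, in which transplanted mice lie between Con and STZ means, and Slc25a1, and the lower panels show 4 members in which mouse 3 of STZ+AOS is the highest of all 18 mice.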

How the data were processed

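Liver RNA of 18 mice was sequenced. By the methods of the study, the authors mapped reads to reference genes and turned the read number of each gene into RPKM, and the deposited table holds 1 RPKM value per gene and mouse. The submitters' notes name Bowtie 0.12.2 and mm10, and the methods name another aligner. RPKM values carry no counts, so no counting interval was computed, and the number of mice limits the precision.

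Genes at 1 RPKM or more in at least 3 libraries were kept, 1 was added before log2, and a linear model of the groups was run in limma 3.58.1 under R 4.3.3, with empirical Bayes moderation and trend. The 4 transplant groups (12 libraries, 10602 genes) formed 1 fit, and contrasts with AOS used all 18 libraries (10822 genes). P-values were adjusted by Benjamini-Hochberg over all genes of a contrast, and calls needed an adjusted p under 0.05. The scripts were tested on simulated data. All 18 columns matched their labels. Of the 47 protein-coding Slc25a genes in the annotation, Slc25a54 was not analysed here, and values of some further genes are not reported here. Neither the labels nor the methods describe a pairing of mice by replicate number, so no block was used in the main fits.

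The members and lists were chosen with earlier results of these data known. Named members were, by rule, the called members with the largest changes in each contrast (10 per direction in STZ against Con, 5 in others, the 3 of smallest p where none was called) and the 8 of highest mean RPKM, and the other members named were chosen after their values were seen. Alternatives were median-ratio scaling, no filter on low values, a pseudocount of 0.1, other sets of libraries in the fit, a replicate block and fits without each mouse.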

Additional observations from a re-analysis of the deposited data

How the results depend on the processing

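Calls in STZ against Con ranged from 20 to 24 members over all alternatives and from 20 to 22 in the fits without 1 mouse. Those in STZ+AOS against AOS ranged from 14 to 20 over all alternatives and from 15 to 20 in the fits without 1 mouse. With all 6 groups in 1 fit STZ against Con called 20 members. There Slc25a29 and Slc25a51 were lost, and Slc25a35 was gained as a lower call whose direction follows from the filter. The counts of the transplant groups against Con moved more. A10-FMT against Con called 17 members and 22 with the compared groups alone, 13 with all 6 groups in 1 fit, 9 after median-ratio scaling, 10 without a filter on low values, 10 with a replicate block and 7 to 14 in the fits without 1 mouse, with 10 or fewer when the mouse left out was one of the A10-FMT mice or Con mouse 1 or 3. Con-FMT against Con called 17 members and 14 with the compared groups alone, 13 with all 6 groups in 1 fit, 7 after median-ratio scaling, 10 without the filter, 12 with the replicate block and 6 to 19 without 1 mouse, with 8 or fewer without Con mouse 1 or 3 or Con-FMT mouse 1 or 3. Both transplant groups against STZ called 0 members, and 0 to 4 without 1 mouse, the 4 without STZ mouse 3. Among all genes, STZ against Con called 4087 and 2651 with the compared groups alone, STZ+AOS against AOS 4102 and 2483, and 2654 when scaled by median ratios, A10-FMT against Con 1953 and 3355, and 1164 when so scaled, and Con-FMT against Con 2059 and 874 when so scaled. The cause of these shifts was not tested. Of the values of single members named by the rule, 598 kept direction and side of the threshold, 9 were called only under the alternative, 5 lost the call and none changed sign with a call.

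The replicate numbers pair no mice by the labels. Deviations of mice with the same number correlated between -0.249 and 0.472 (median 0.032, 15 of 45 over 0.1). For mice of other numbers the median was -0.013, with 16 of 90 over 0.1. Of 18 mice, 9 correlated best with their own number, and whether such mice shared a batch is not stated. The replicate block gave 20 calls in STZ against Con and 18 in STZ+AOS against AOS. RPKM keeps no counts, and members near 1 RPKM rest on few reads.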
